A study of Mus musculus with 22 samples.

Results

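Collagen chains were followed in the hippocampus of TgproNGF#3 mice and of WT mice at 3 ages. The 40 members are genes that encode a collagen alpha chain and have a probe on the array, out of 21176 genes with a probe, and they were grouped by the structure their chains build. There were 11 fibrillar chains, 9 network chains (Col4, Col8 and Col10 genes), 3 beaded chains (Col6 genes), 9 FACIT chains, 4 transmembrane chains, 2 multiplexins and 2 other chains. The members were covered by 57 probes, and 11 members had more than 1 probe. For each member the probe with values on most arrays, and among those the highest mean, was used, and 33 members had a value on all 22 arrays.

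TgproNGF#3 mice carry a proNGF, the precursor of nerve growth factor, whose furin cleavage site was mutated so that it is not processed. The transgene is driven by the neuronal Thy1.2 promoter, and the mice descend from 1 of several founder lines, so that an effect of the insertion site cannot be told apart from an effect of the transgene. Both genotypes are on the C57Bl/6xDBA/2 background and received no treatment. There were 4 TgproNGF#3 and 4 WT males of 1 month, 4 and 4 males of 3 months, and 3 and 3 females of 12 months. One array was hybridized per mouse, and the arrays of each age lay on a slide of their own. Age and slide, and for the 12-month-old mice sex as well, cannot be told apart. A log2 level here is the log2 intensity of a probe minus the 75th percentile of its array, so a level below 0 is dimmer than that percentile, and levels of different probes were not compared. A member was called at an unadjusted p below 0.05 in limma with a log2 difference above 1 or below -1, and adjusted p-values are those of Benjamini and Hochberg over all probes tested in that comparison.

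Collagens are trimers of alpha chains wound into a triple helix. Fibrillar collagens assemble into the banded fibrils of connective tissue, network collagens form the sheets of basement membranes, and beaded collagen VI forms microfilaments next to cells. FACITs sit on the surface of fibrils, transmembrane collagens span the cell membrane, and multiplexins are basement membrane proteoglycans. In the brain most fibrillar collagen lies in the meninges and around larger vessels, collagen IV lies in the vascular basement membrane, and collagen XXV is a neuronal membrane protein also known from amyloid plaques.

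RefSeq promoters (GRCm38.p6) were on hand for 32 of the 40 members. The stretches of 150 bases before the start are shown for Col1a2 and Col3a1, which were both lower in TgproNGF#3 mice of 12 months, and for Col11a1 and Col25a1, which differed in opposite directions at 3 months. Capitals mark the TATA box motif TATAAA, the CCAAT box and the GC box motif GGGCGG, each searched on both strands. The stretches are given in the order Col1a2 at chr6:4505468-4505617, Col3a1 at chr1:45311388-45311537, Col11a1 at chr3:114030390-114030539 and Col25a1 at chr3:130180695-130180844, all on the plus strand and written 5′ to 3′.
Col1a2: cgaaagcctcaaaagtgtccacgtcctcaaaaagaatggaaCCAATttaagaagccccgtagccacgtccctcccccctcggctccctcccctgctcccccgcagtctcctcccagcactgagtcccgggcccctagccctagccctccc
Col3a1: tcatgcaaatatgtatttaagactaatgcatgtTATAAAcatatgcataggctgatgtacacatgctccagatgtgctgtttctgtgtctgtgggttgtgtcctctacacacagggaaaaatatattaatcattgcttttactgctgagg
Col11a1: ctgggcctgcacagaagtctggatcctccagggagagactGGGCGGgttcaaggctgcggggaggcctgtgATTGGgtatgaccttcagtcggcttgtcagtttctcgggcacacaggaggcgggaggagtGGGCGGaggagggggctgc
Col25a1: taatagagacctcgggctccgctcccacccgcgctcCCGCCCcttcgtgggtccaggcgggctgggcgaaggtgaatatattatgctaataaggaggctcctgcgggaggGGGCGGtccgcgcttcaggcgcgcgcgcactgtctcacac
CCAAT stood 109 bases before the start of Col1a2, and TATAAA 117 bases before that of Col3a1. Col11a1 held CCAAT on the opposite strand 79 bases before its start and GGGCGG at 110 and 19 bases, and Col25a1 held GGGCGG at 40 bases and on the opposite strand at 114 bases. TATAAA occurred in 4 of 35 promoter entries of members and in 7.57% of all 32851 entries, CCAAT in 8 and in 24.5%, and GGGCGG in 16 and in 28.6%. The stretches of Col1a2 and Col3a1 share none of these motifs. CG pairs numbered 7 in the stretch of Col1a2 and 0 in that of Col3a1, against 16 in that of Col25a1. Col4a1 and Col4a2, the chains of the common basement membrane collagen IV, are transcribed from opposite strands, with starts 21 bases apart in this build.

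All 7 markers of hippocampal neurons (Prox1, Fibcd1, Wfs1, Grik4, Neurod6, Spink8 and Camk2a) were well above background on all 22 arrays. Since most spots were well above background on every array, this detection does not test the tissue label. All 12 markers of leptomeningeal fibroblasts, the collagen-producing cells of the pia and arachnoid, and all 9 markers of choroid plexus epithelium were also well above background on every array. The choroid plexus markers, summed as multiples of the 75th percentile, ranged from 6.13 to 142 in WT mice of 1 month, from 6.27 to 136 in TgproNGF#3 mice of 3 months and up to 196 in WT mice of 12 months, but only from 74.4 to 114 in WT mice of 3 months. At 1 month the TgproNGF#3 arrays lay in columns of the slide that held no WT array, so column and genotype cannot be told apart there. At 12 months the 3 TgproNGF#3 arrays shared a row with WT replicate 3 alone. Between 57.6% and 80.3% of the spots were well above background, with at least 69.8% at 1 month and at most 67.7% at 3 and 12 months.

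The genotype comparison asks at which age collagen expression differed in TgproNGF#3 mice. At 12 months 3 of 10 fibrillar and 2 of 3 beaded chains tested were called lower, where 0.992% of all probes were, and none had an adjusted p below 0.05. Among them Col1a1, Col1a2 and Col3a1, which encode the chains of the main fibrillar collagens I and III, were 2.82-fold, 3.14-fold and 3.48-fold lower. At 3 months Col2a1 and Col11a1, chains of cartilage collagens, were 2.74-fold and 2.13-fold higher, and Col25a1 was 4.76-fold lower. At that age 0.643% of all probes were called higher and 6.12% lower. At 1 month Col6a3 alone was called, where 0.242% of all probes were called higher and 0.328% lower. Over the members tested the median log2 difference was 0.16 at 1 month (37 members), 0.20 at 3 months (36 members) and -0.42 at 12 months (33 members), beside 0.07, -0.12 and 0.01 over all probes tested. These medians depended on single arrays, and ranged from 0.01 without WT replicate 3 to 0.25 without TgproNGF#3 replicate 1 at 1 month, between 0.02 and 0.33 at 3 months, where TgproNGF#3 replicate 1 and replicate 4 were left out respectively, and from -0.50 without TgproNGF#3 replicate 3 to -0.12 without WT replicate 2 at 12 months. The median at 12 months was -0.27 with scaling by the array median and -0.21 with quantile normalization, beside 0.16 and 0.11 over all probes. With normexp background correction, followed by quantile normalization, it was -0.10.

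**Figure D1:**
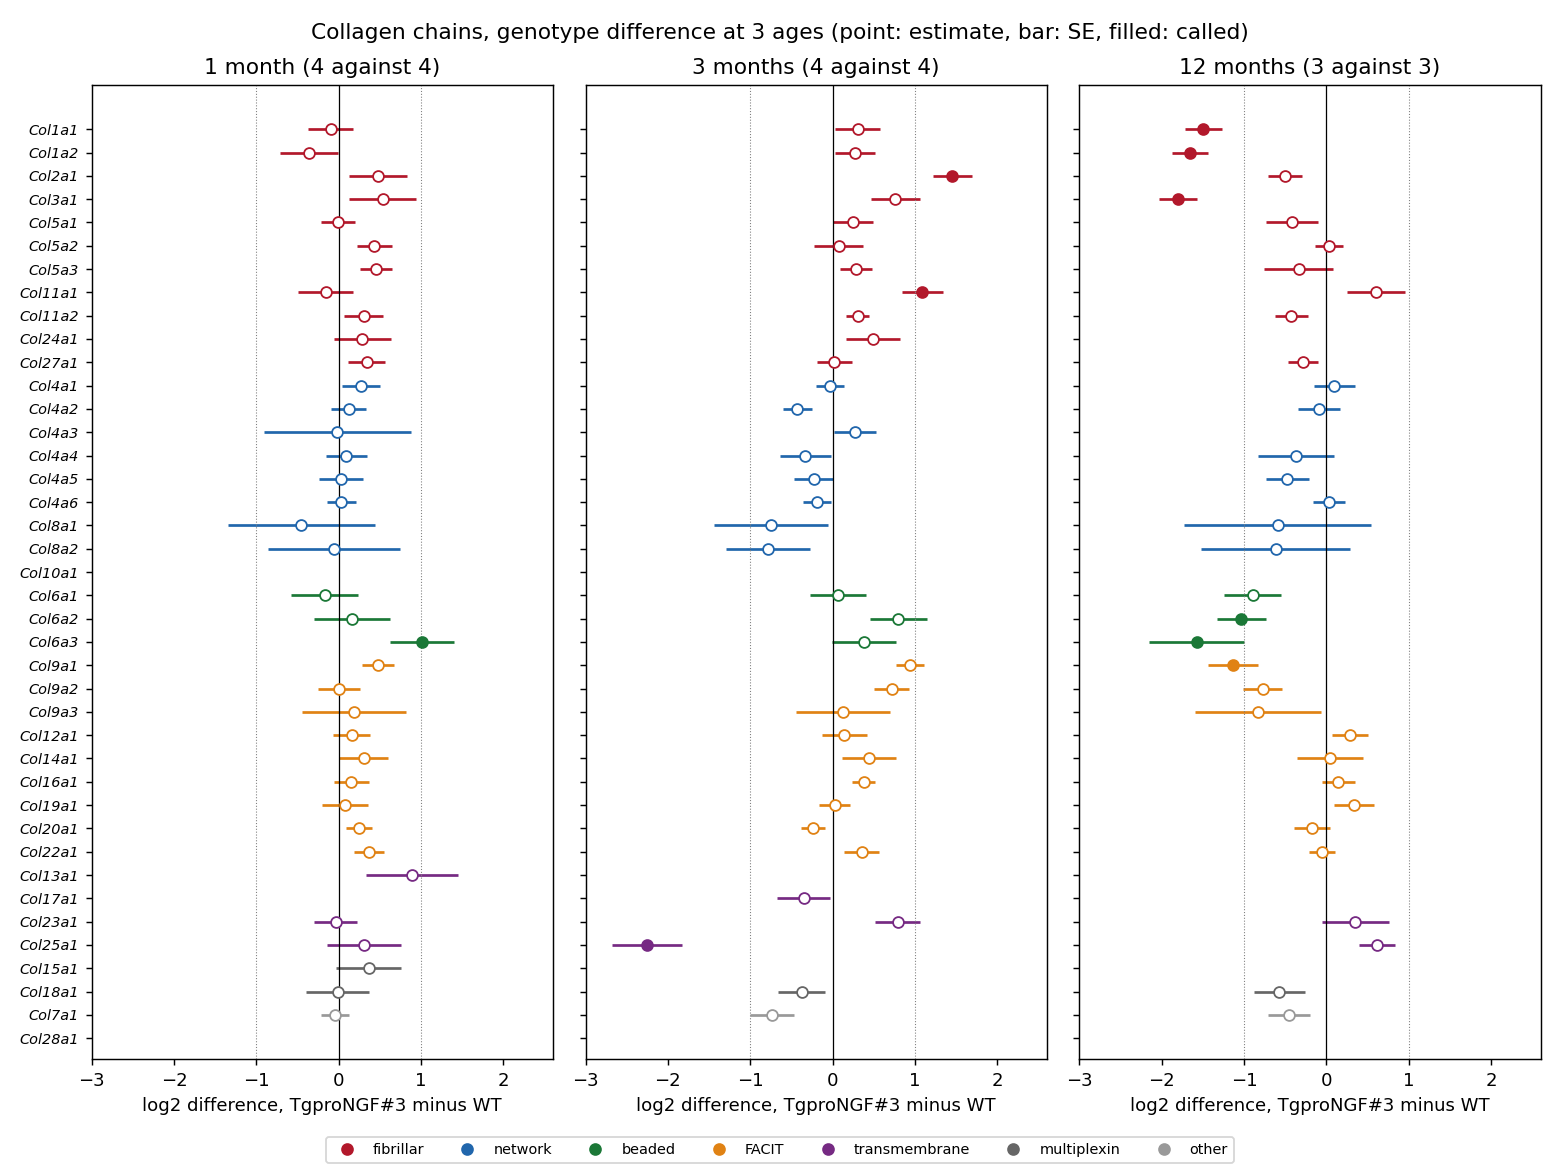
Log2 difference between TgproNGF#3 and WT mice for each collagen chain (rows, coloured by structural class) at 1, 3 and 12 months, with the standard error as a bar and filled points for called members. The 3 filled red points at 12 months are Col1a1, Col1a2 and Col3a1, between -1.80 and -1.50, while at 3 months all 11 fibrillar points lie above 0.

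The fibrillar chains Col1a1 and Col1a2 form collagen I. At 12 months Col1a1 had log2 levels of -2.58, -3.41 and -3.27 in the TgproNGF#3 mice and -1.61, -1.51 and -1.65 in the WT mice. Every TgproNGF#3 array was below every WT array, with means of -3.09 ± 0.44 and -1.59 ± 0.07 (SD, n = 3 each). The difference was -1.50 (SE 0.22, limma p = 0.00022, adjusted p = 0.50, exact permutation p = 0.10). Col1a2 followed with levels of -1.04, -1.64 and -1.25 against 0.12, 0.69 and 0.21. Its groups did not overlap either, and the difference was -1.65 (SE 0.22, limma p = 9.4e-05, adjusted p = 0.35, exact permutation p = 0.10).

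Col3a1, the single chain of collagen III, was also called. Its levels were -5.01, -5.54 and -5.05 in TgproNGF#3 mice and -3.43, -3.02 and -3.75 in WT mice of 12 months, again without overlap. The difference was -1.80 (SE 0.23, limma p = 7.8e-05, adjusted p = 0.35, exact permutation p = 0.10). With normexp background correction the difference of Col3a1 was -0.92 and was not called, while Col1a1 and Col1a2 were called at -1.24 and -1.67. Groups of 3 cannot give a two-sided exact permutation p below 0.10. The remaining fibrillar chains were not called at 12 months. Col2a1, of cartilage collagen II, differed by -0.50 (SE 0.21), Col5a1 by -0.42 (SE 0.31) and Col11a2 by -0.43 (SE 0.20), while Col11a1 was the other way at 0.60 (SE 0.35). Col24a1 was not tested, since it was above background on 1 array per genotype.

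All 3 beaded chains, which together make the collagen VI heterotrimer, had lower means in TgproNGF#3 mice of 12 months. Col6a2 levels were -4.05, -4.39 and -3.61 against -2.88, -2.53 and -3.55. The highest TgproNGF#3 array lay just below the lowest WT array, and the difference was -1.03 (SE 0.30, limma p = 0.0097, adjusted p = 0.55, exact permutation p = 0.10). Col6a3 levels were -2.36, -4.71 and -4.44 against -2.07, -2.08 and -2.65. TgproNGF#3 replicate 1 lay within the WT range, so the call at -1.58 (SE 0.57, limma p = 0.027, adjusted p = 0.55, exact permutation p = 0.20) rested on the other 2 mice. Col6a1 levels were -0.22, -0.95 and 0.19 against 0.77, 0.93 and 0.01, which overlap, and the difference of -0.90 (SE 0.34, limma p = 0.032, exact permutation p = 0.20) stayed under the fold threshold.

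**Figure D2:**
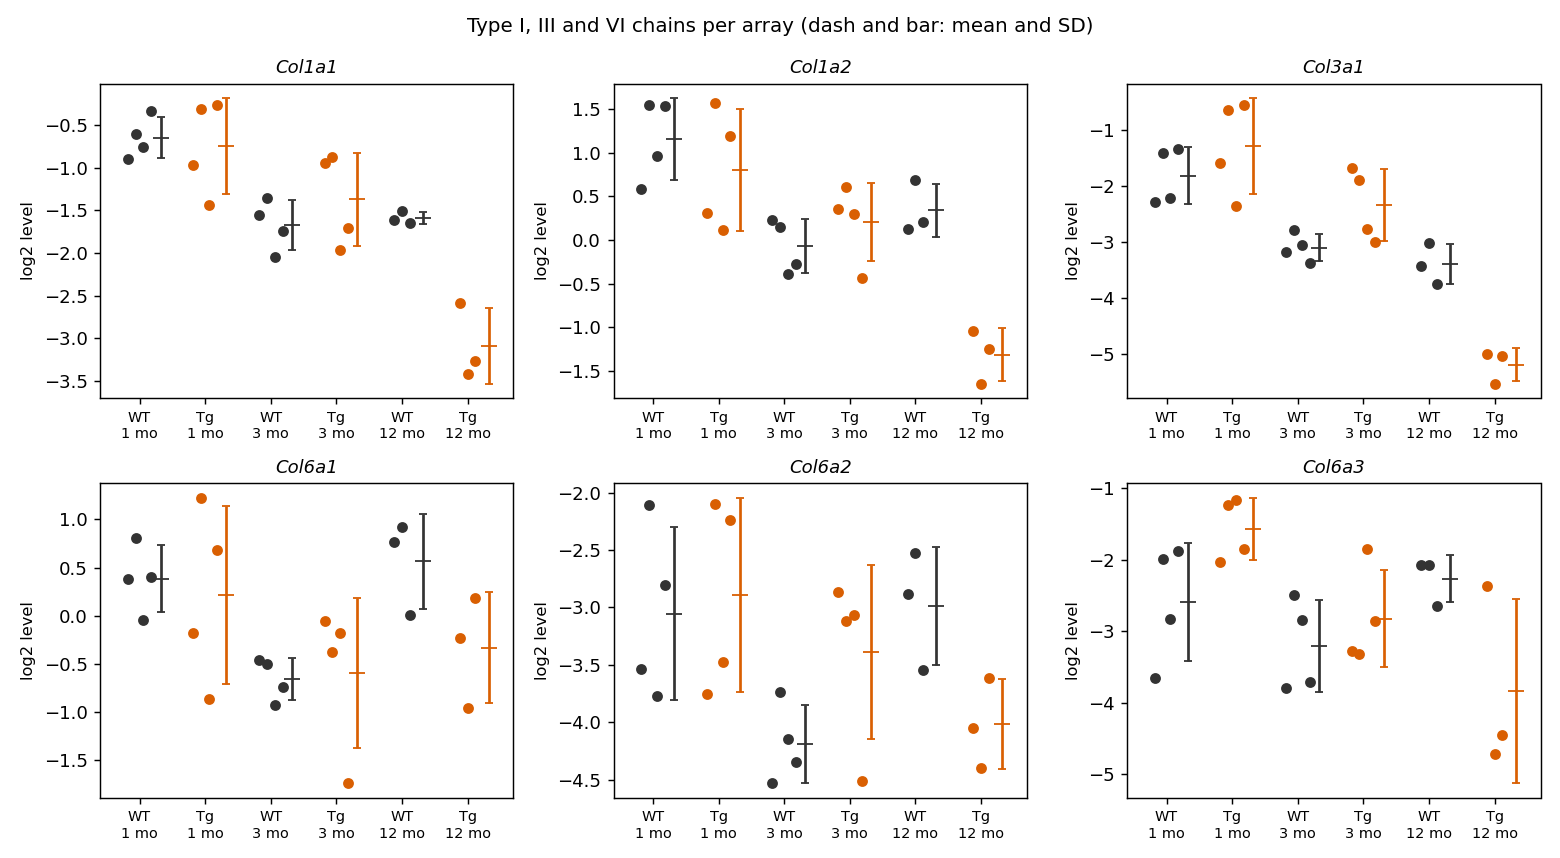
Log2 levels (intensity minus the array's 75th percentile) of the collagen I, III and VI chains on each array, by genotype and age, with the group mean and SD beside the points. In Col1a1, Col1a2 and Col3a1 all 3 TgproNGF#3 arrays of 12 months lie below every WT array of that age, while Col6a3 has 1 TgproNGF#3 array inside the WT range.

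Among the FACITs, Col9a1, a chain of collagen IX that decorates fibrils of collagen II, was called at 12 months. Its levels were -5.10, -6.13 and -6.15 in TgproNGF#3 mice and -4.54, -4.97 and -4.46 in WT mice, without overlap, a difference of -1.14 (SE 0.31, limma p = 0.0065, adjusted p = 0.55, exact permutation p = 0.10). A second probe of Col9a1 differed by -0.03 (SE 0.17), so the 2 probes of this gene disagreed. Col9a2, its partner chain, had levels of -2.30, -2.77 and -2.14 against -1.57, -1.32 and -2.00. These groups did not overlap, and the difference of -0.77 (SE 0.23, limma p = 0.012, exact permutation p = 0.10) was under the fold threshold. The other FACITs lay between -0.83 for Col9a3 and 0.34 for Col19a1.

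In all, 6 of 33 members tested were called lower at 12 months and 0 higher, where 0.992% of all probes were called lower and 0.311% higher. No member and no other probe passed an adjusted p of 0.05 in limma at this age, and 10 of 33 members had an unadjusted p below 0.05, as had 9.05% of all probes. By class, 8 of 10 fibrillar, 3 of 3 beaded, 5 of 7 network and 5 of 9 FACIT chains had lower means, with class medians of -0.42, -1.03, -0.37 and -0.05. Scaling by the array median moved the median of all probes from 0.01 to 0.16 and left 4 members called lower, without Col6a2 and Col9a1, with 0.572% of probes higher and 0.71% lower. Within the row that held WT replicate 3, the differences were -1.44 for Col1a1, -1.52 for Col1a2, -1.45 for Col3a1, -1.34 for Col9a1, -1.20 for Col6a3 and -0.47 for Col6a2, and the last 2 were not called with row as a block. Without TgproNGF#3 replicate 2 the calls fell to 3, as Col6a2, Col6a3 and Col9a1 were no longer called. Col6a2 was also not called without WT replicate 1 or 2, Col6a3 without TgproNGF#3 replicate 3 or WT replicate 1 or 2, and Col9a1 without TgproNGF#3 replicate 3.

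Leptomeningeal markers moved in the same direction as the fibrillar chains at 12 months. All 12 had lower means in TgproNGF#3 mice, with a median of -0.83. Where 0.992% of all probes were called lower, 4 of the 12 were, none with an adjusted p below 0.05. These were Slc6a13 (-1.42), Slc22a6 (-1.27), Aldh1a2 (-1.55) and Gjb2 (-1.39). The summed level of the 12 markers was 3.68, 2.81 and 8.58 in the TgproNGF#3 mice and 6.58, 15.6 and 6.54 in the WT mice. TgproNGF#3 replicate 3, with a sum inside the WT range, had Col1a1 at -3.27 and Col3a1 at -5.05, below all WT arrays. By the median over the 12 markers the same array was at -0.60, also below the WT arrays at 0.02, 0.43 and -0.39. At 3 months all 12 had higher means in TgproNGF#3 mice (median 0.50, sums from 9.27 to 20.4 against 7.74 to 11.4), and at 1 month 11 had lower means (median -0.31), with 0 called at either age. In bulk tissue, fewer cells of a type and less RNA per cell cannot be told apart, and the part of these cells in the collagen differences was not tested.

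**Figure D3:**
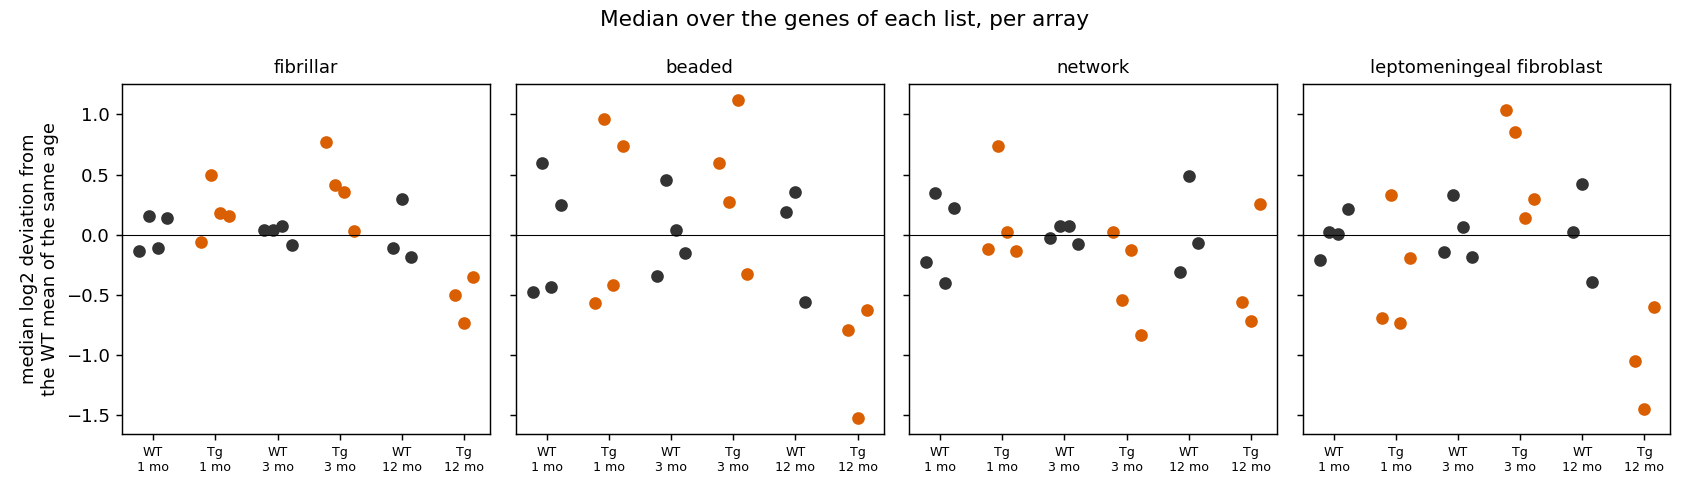
Median log2 deviation from the WT mean of the same age over the fibrillar, beaded and network chains and the leptomeningeal markers, 1 point per array. The 3 TgproNGF#3 arrays of 12 months lie between -0.73 and -0.35 for the fibrillar chains and between -1.44 and -0.60 for the leptomeningeal markers, while the network chains overlap between genotypes.

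At 3 months 2 of 11 fibrillar chains, Col2a1 and Col11a1, were called higher in TgproNGF#3 mice, where 0.643% of all probes were. Both chains belong to cartilage collagens. Col11a2, another chain of collagen XI, differed by 0.30 (SE 0.14, limma adjusted p = 0.19), with overlapping groups. Col2a1 had levels of -4.47, -3.47, -4.03 and -4.61 in TgproNGF#3 mice and -5.48, -5.64, -5.51 and -5.78 in WT mice. All TgproNGF#3 arrays were above all WT arrays, and the difference was 1.45 (SE 0.24, limma adjusted p = 0.0083). With normexp background correction it was 0.80, and that of Col11a1 0.92, and neither was called. Col11a1, a minor chain that helps to nucleate fibrils, had levels of -2.05, -3.19, -2.72 and -2.16 against -3.55, -3.90, -3.48 and -3.55. These did not overlap, and the difference was 1.09 (SE 0.25, limma adjusted p = 0.03). It fell below the fold threshold, to between 0.93 and 1.00, when TgproNGF#3 replicate 1, TgproNGF#3 replicate 4 or WT replicate 2 was left out.

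Col9a1 was also higher at 3 months, with levels of -4.79, -4.64, -4.10 and -4.58 against -5.28, -5.45, -5.64 and -5.50. The groups did not overlap, and the difference of 0.94 (SE 0.17, limma adjusted p = 0.013) passed the adjusted threshold without reaching the fold threshold. The adjusted p was no longer below 0.05 without WT replicate 4, where the difference was 0.93, or with the mean of both probes, where it was 0.95. The second probe had a value on 1 TgproNGF#3 array, at -6.28, against a mean of -5.92 on 3 WT arrays, and was not tested at this age. With normexp background correction the difference was 0.55. The exact permutation p of Col2a1, Col11a1 and Col9a1 was 0.0286 each, the smallest that groups of 4 allow. Col3a1 had a difference of 0.76 (SE 0.30, limma p = 0.029, adjusted p = 0.14, exact permutation p = 0.0571) and Col1a1 and Col1a2 of 0.30 (SE 0.27) and 0.28 (SE 0.24), none with an adjusted p below 0.05. For Col1a1 the levels were -0.95, -0.87, -1.97 and -1.70 in TgproNGF#3 mice and -1.56, -1.35, -2.05 and -1.74 in WT mice, which overlap. Col1a2 stood at 0.35, 0.61, 0.30 and -0.43 against 0.23, 0.15, -0.39 and -0.27, which also overlap. Col3a1 stood at -1.69, -1.90, -2.77 and -3.01 against -3.19, -2.80, -3.05 and -3.38, with TgproNGF#3 replicate 4 inside the WT range.

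The beaded chains differed by 0.07 (Col6a1, SE 0.34), 0.80 (Col6a2, SE 0.35) and 0.38 (Col6a3, SE 0.39), with adjusted p-values of at least 0.18. Col6a1 levels at 3 months were -0.06, -0.38, -0.18 and -1.74 in TgproNGF#3 mice and -0.46, -0.50, -0.93 and -0.74 in WT mice. Col6a2 levels were -2.87, -3.12, -3.07 and -4.51 against -4.53, -3.74, -4.14 and -4.34. In both, TgproNGF#3 replicate 4 was far below the other 3 TgproNGF#3 arrays. Col6a3 levels were -3.27, -3.31, -1.85 and -2.86 against -3.79, -2.49, -2.84 and -3.71, and the groups overlapped.

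At the other ages Col2a1 stood at -3.92, -3.61, -4.63 and -4.82 in TgproNGF#3 mice of 1 month against -4.38, -5.44, -4.03 and -5.03, and at -4.29, -3.75 and -4.03 in those of 12 months against -3.45, -3.28 and -3.83. Col11a1 stood at -2.47, -2.38, -1.80 and -2.67 against -1.57, -3.01, -1.67 and -2.43 at 1 month, and at -1.53, -2.06 and -2.25 against -3.31, -2.36 and -1.97 at 12 months. The genotypes overlapped in both genes at both of these ages. Col9a1 at 1 month stood at -3.93, -3.63, -3.76 and -3.80 against -4.70, -3.98, -4.29 and -4.04.

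Col9a2 levels at 3 months were -0.86, -0.51, -1.28 and -1.33 in TgproNGF#3 mice and -1.87, -1.41, -1.63 and -1.94 in WT mice. The groups did not overlap, and the difference of 0.72 (SE 0.21, limma adjusted p = 0.067) passed neither threshold. Among the other FACITs, Col16a1 differed by 0.38 (SE 0.14; -0.03 by a second probe) and Col20a1 by -0.24 (SE 0.14; -0.45 by a second probe, SE 0.14, limma adjusted p = 0.079), again without overlap except for the second probe of Col16a1. Col9a3, Col12a1, Col14a1, Col19a1 and Col22a1 lay between 0.02 and 0.44 with overlapping groups, and a second probe of Col14a1 differed by -0.12 (SE 0.25). The share of all probes whose groups lay apart at 3 months was not counted.

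Col25a1, a transmembrane chain, was called lower at 3 months. Its levels were -3.31, -3.67, -5.29 and -3.10 in TgproNGF#3 mice and -1.23, -1.76, -1.92 and -1.46 in WT mice. The groups lay apart, and the difference was -2.25 (SE 0.43, limma adjusted p = 0.015). A second probe, at -6.26, -6.46 and -5.87 in 3 TgproNGF#3 mice against -4.49, -5.03, -4.44 and -4.57, was also called, at -1.57 (SE 0.21, adjusted p = 0.0051), while the other 2 probes differed by -0.36 (SE 0.31) and -0.09 (SE 0.40). These 3 further probes had no value on TgproNGF#3 replicate 4, where they were not above background or were marked as outliers. The mean of all 4 probes differed by -0.63 and was not called. At 12 months the direction was the other way, with levels of -1.29, -1.18 and -0.99 against -1.72, -2.20 and -1.38, which did not overlap (difference 0.61, SE 0.22, limma adjusted p = 0.55). At 1 month the levels were -2.13, -1.20, -1.74 and -1.60 against -1.86, -1.39, -3.49 and -1.18, which overlap. Of the 7 markers of hippocampal neurons, 6 also had lower means at 3 months, with a median of -0.47 and 0 called. An adjusted p below 0.05 in limma was found for 3 of them, where 8.43% of all probes passed. The summed level of the 7 markers ranged from 13.5 to 20.1 in TgproNGF#3 mice and from 20.8 to 24.1 in WT mice. Their part in the Col25a1 difference was not tested.

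The second transmembrane chain with values on all arrays, Col23a1, differed by 0.79 at 3 months (SE 0.27, adjusted p = 0.10), and by 0.30 (SE 0.24, adjusted p = 0.45) by a second probe with values on all arrays.

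**Figure D4:**
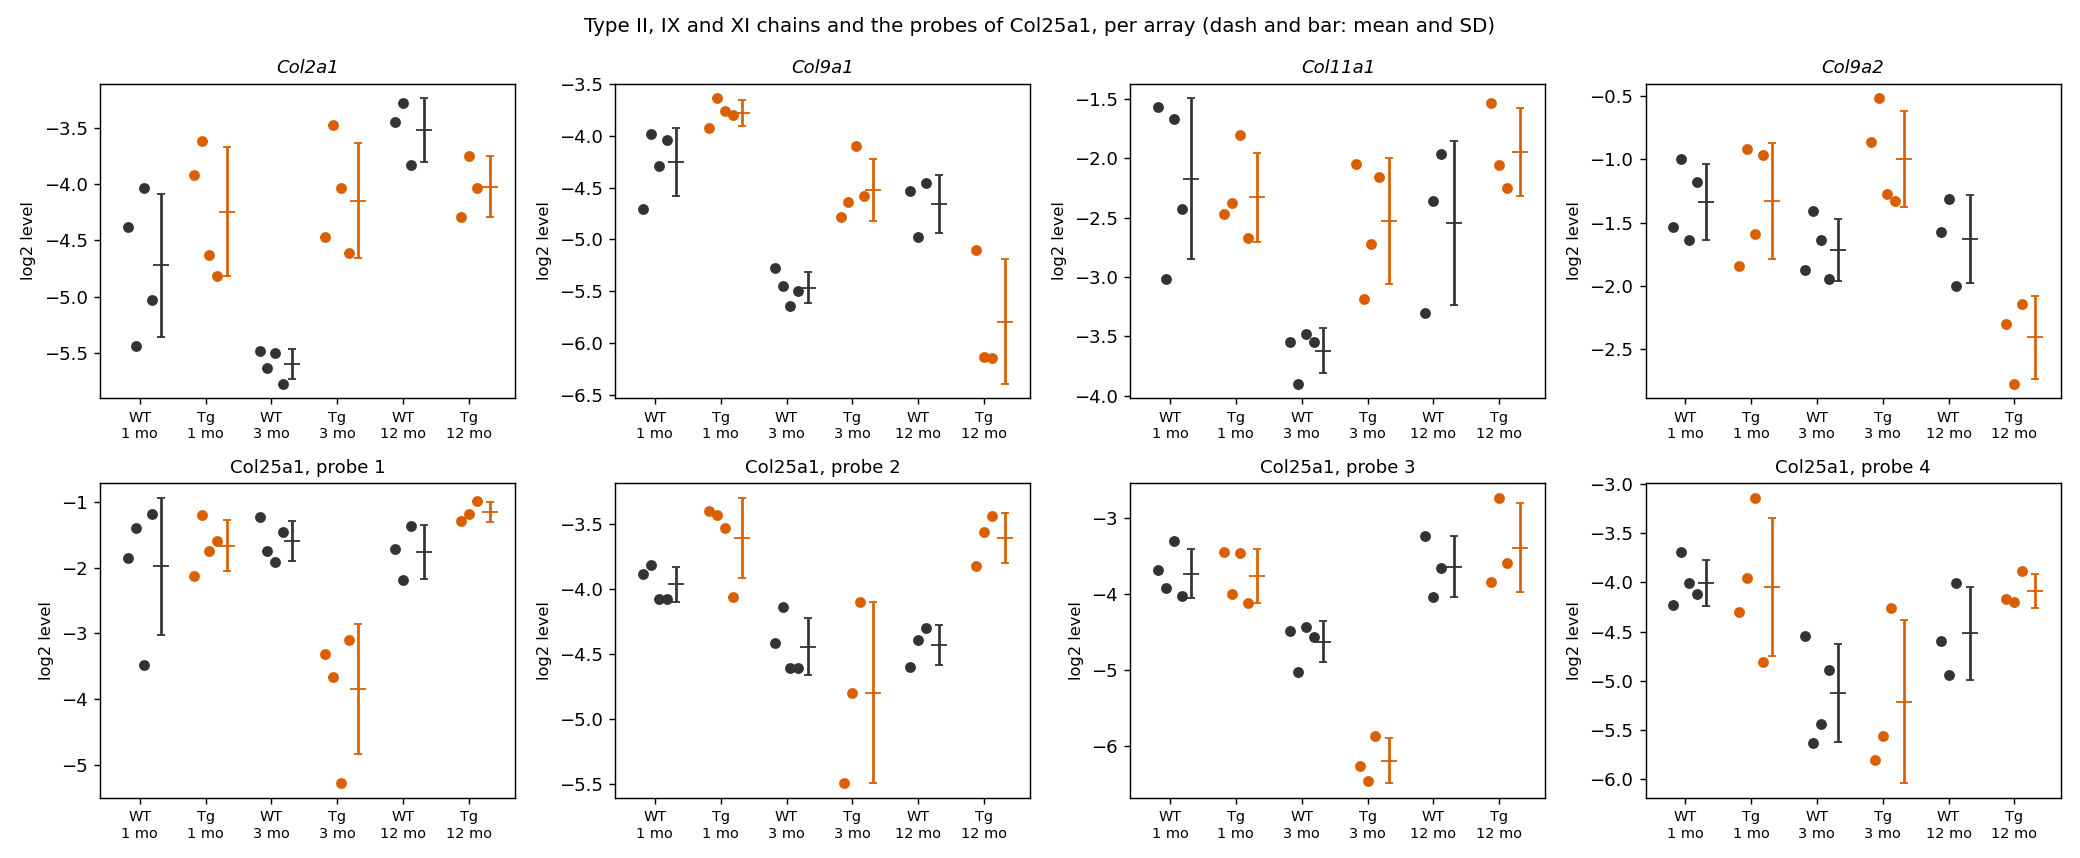
Log2 levels per array of Col2a1, Col9a1, Col11a1 and Col9a2 (upper row) and of the 4 probes of Col25a1 (lower row), with the group mean and SD beside the points. In Col2a1, Col9a1 and Col11a1 the TgproNGF#3 arrays of 3 months lie above all WT arrays of that age, and only probes 1 and 3 of Col25a1 separate the genotypes at 3 months.

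Of 36 members tested at 3 months, 2 were called higher and 1 lower, where 0.643% of all probes were called higher and 6.12% lower. With the adjusted threshold alone, 3 were higher and 1 lower, where 8.43% of all probes passed. An unadjusted p below 0.05 in limma was found for 11 of 36 members and for 9127 of 33593 probes. All 11 fibrillar, 3 of 3 beaded and 8 of 9 FACIT chains had higher means in TgproNGF#3 mice, while 7 of 8 network chains had lower means, with class medians of 0.30, 0.38, 0.35 and -0.28 against -0.12 over all probes. The within-row differences of the members called were 1.59 and 1.32 for Col2a1, 1.11 and 1.08 for Col11a1 and -2.00 and -2.50 for Col25a1.

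At 1 month Col6a3 was called, 1 of 37 members tested and none lower, where 0.242% of all probes were called higher and 0.328% lower. Its levels were -2.04, -1.23, -1.17 and -1.85 in TgproNGF#3 mice and -3.66, -1.99, -2.83 and -1.88 in WT mice. The groups overlapped, and the difference was 1.02 (SE 0.39, limma p = 0.025, adjusted p = 1.00), with an exact permutation p of 0.11. It was not called without TgproNGF#3 replicate 2 or 3 or without WT replicate 1 or 3, with differences from 0.66 to 0.94. No member and no other probe had an adjusted p below 0.05 in limma at 1 month, and 3 of 37 members had an unadjusted p below 0.05, as had 3.47% of all probes. All 9 FACIT chains had higher means, with a median of 0.19, and among these Col9a1 and Col22a1 had groups that did not overlap, with differences of 0.47 (SE 0.19) and 0.37 (SE 0.19). How many of all probes had groups apart at this age was not counted. The second probe of Col9a1 had overlapping groups and a difference of -0.01 (SE 0.27), so the higher Col9a1 mean rests on 1 of its 2 probes.

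The collagen I and III chains varied widely at 1 month. Col1a1 stood at -0.97, -0.31, -1.44 and -0.27 in TgproNGF#3 mice and at -0.90, -0.61, -0.76 and -0.34 in WT mice. Col1a2 stood at 0.31, 1.57, 0.12 and 1.19 against 0.58, 1.55, 0.96 and 1.53, a difference of -0.36 (SE 0.35). Col3a1 stood at -1.59, -0.64, -2.36 and -0.56 against -2.30, -1.42, -2.23 and -1.34, a difference of 0.53 (SE 0.41). In all 3 genes TgproNGF#3 replicates 2 and 4 were the higher ones and the groups overlapped. Col6a1 stood at -0.18, 1.23, -0.87 and 0.69 against 0.39, 0.80, -0.04 and 0.40, and Col6a2 at -3.76, -2.10, -3.47 and -2.23 against -3.53, -2.11, -3.77 and -2.80. TgproNGF#3 replicates 2 and 4 were again the higher ones, and 2 marker sums were highest on the same arrays. The leptomeningeal sum was 6.41, 20.9, 6.09 and 8.70 in TgproNGF#3 mice and 7.42, 16.7, 9.25 and 14.7 in WT mice. The choroid plexus sum was 25.8, 105, 6.71 and 40.7 in TgproNGF#3 mice and 6.13, 142, 28.9 and 94.9 in WT mice. Both sums were also highest in WT replicates 2 and 4. The part of those cells in this spread was not tested.

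By the probes used, no network chain was called in the genotype comparison or had an adjusted p below 0.05. Col4a1 levels were -0.77, -1.64 and -1.03 in TgproNGF#3 mice of 12 months and -1.51, -1.03 and -1.18 in WT mice, which overlap (difference 0.09, SE 0.25). At 3 months Col4a1 differed by -0.03 (SE 0.17) and Col4a2 by -0.43 (SE 0.17, limma p = 0.035, adjusted p = 0.15, exact permutation p = 0.0857), and at 12 months Col4a2 differed by -0.09 (SE 0.26). At 3 months Col4a1 stood at -0.93, -0.79, -0.73 and -1.09 against -0.70, -0.62, -1.23 and -0.89, and Col4a2 at -0.88, -0.36, -0.44 and -0.83 against -0.04, -0.12, -0.49 and -0.14. Col4a2 at 12 months stood at -0.27, -1.31 and -0.75 against -0.86, -0.53 and -0.67. At 1 month Col4a1 stood at -0.04, 0.41, 0.15 and 0.27 against -0.30, 0.30, -0.56 and 0.26, and Col4a2 at 0.02, 0.41, 0.17 and 0.43 against -0.03, 0.48, -0.27 and 0.36. Genotypes overlapped in both genes at all 3 ages. The 7 endothelial markers had median differences of 0.07, -0.33 and -0.04 at 1, 3 and 12 months. Of these Cdh5 was called at 3 months (-2.07), where 6.12% of all probes were called lower. The 7 mural cell markers had median differences of 0.17, 0.00 and -0.05, with 0 called. A second probe of Col4a6, a chain of restricted basement membranes, was called at 12 months at -1.04 (SE 0.31), whereas the probe used differed by 0.03 (SE 0.20). Col8a1 and Col8a2, the chains of short-chain collagen VIII, had SDs of 2.11 and 1.55 in TgproNGF#3 mice of 12 months, the widest of that group, and of 0.48 and 0.49 in WT mice of 3 months. Col8a2 stood at -3.85, -3.66 and -1.08 in TgproNGF#3 mice and at -3.66, -0.76 and -2.32 in WT mice of 12 months. The summed choroid plexus level on the same arrays was 8.93, 9.56 and 135 in the TgproNGF#3 mice and 10.03, 196 and 54.7 in the WT mice. The 3 arrays with low sums are the 3 with low Col8a2, and the part of choroid plexus in it was not tested. All 9 choroid plexus markers had lower means in TgproNGF#3 mice at each age, with medians of -0.49, -0.87 and -1.05 and 0 called.

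Some chains were too dim to be followed. For these a lower bound set the mean of the brighter group against, on each dim array, the lowest level of any probe well above background or the level of the chain itself where that was higher. Col10a1 was above background only on 2 of 4 WT arrays of 1 month. Col15a1 was above background at 1 month only, and in WT mice it was at least 1.34-fold brighter at 1 month than at 3 months, relative to the 75th percentile of each array. The median of all probes fell by 0.44 on the log2 scale there, slightly more than this bound. The bound therefore shows no change of Col15a1 beyond that fall. Col17a1 was above background on 3 of 4 WT arrays of 3 months and on none of 12 months, with a bound of only 1.01-fold. Col10a1, Col13a1 and Col28a1 allowed no bound. Col7a1, which builds anchoring fibrils, differed by -0.73 at 3 months (SE 0.27, adjusted p = 0.12), and Col18a1, the precursor of endostatin, by -0.38 (SE 0.29).

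Whether the genotype difference itself changed with age was tested as an interaction. Between 12 and 3 months it was lower at 12 months for 6 members and higher for 1, out of 33 tested and with an adjusted p below 0.05 in limma, where 4.01% of all probes passed. The change was -2.56 for Col3a1 (SE 0.42, adjusted p = 0.0049), -2.08 for Col9a1 (SE 0.35, adjusted p = 0.0054), -1.96 for Col2a1 (SE 0.34, adjusted p = 0.0068), -1.93 for Col1a2 (SE 0.36, adjusted p = 0.0088), -1.80 for Col1a1 (SE 0.39, adjusted p = 0.02) and -1.49 for Col9a2 (SE 0.33, adjusted p = 0.023). Col25a1 changed by 2.86 (SE 0.57, adjusted p = 0.013), but by 1.16 with the mean of its 4 probes and by 2.70 with dim spots kept, neither with an adjusted p below 0.05. With normexp background correction the change was -1.01 for Col2a1, -1.08 for Col9a1 and -1.58 for Col3a1, each still past the adjusted threshold. All 10 fibrillar chains tested had a lower genotype difference at 12 months than at 3 months. Of the 12 leptomeningeal markers, 12 also had a lower one, 5 with an adjusted p below 0.05, among them Aldh1a2 (-2.40) and Gjb2 (-2.19). Leaving out 1 array lost Col1a1 with TgproNGF#3 replicate 2 or 3 or WT replicate 1 or 2 of 12 months, and Col9a2 with TgproNGF#3 replicate 2 or WT replicate 1 or 2 of 12 months or WT replicate 4 of 3 months. Since the mice of 3 and 12 months differ in sex and slide, age cannot be told apart from either. Between 3 months and 1 month 0 of 35 members passed in limma where 1.75% of all probes passed, and 6 had an unadjusted p below 0.05, as had 13.1% of all probes.

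The collagen pathway list held 45 genes of collagen modification, secretion, cleavage, crosslinking and binding, of which 44 had a probe. Of 40 tested at 1 month none was called, and 0.242% of all probes were called higher and 0.328% lower. At 3 months P4ha1, a subunit of prolyl 4-hydroxylase, was the 1 of 38 with an adjusted p below 0.05, at -0.54 (SE 0.14, limma adjusted p = 0.049), where 8.43% of all probes passed. At 12 months Fmod, fibromodulin, which binds collagen fibrils, was the 1 of 39 called, at -1.85 (SE 0.33, limma adjusted p = 0.55), where 0.992% of all probes were called lower. Between 12 and 3 months the genotype difference changed by -2.54 for Fmod (adjusted p = 0.044) and by 0.81 for P4ha1 (adjusted p = 0.037). Serpinh1, the collagen chaperone HSP47, differed by 0.06, -0.19 and -0.45 at 1, 3 and 12 months and was not called. The list's median was 0.06, -0.13 and -0.19 at the 3 ages.

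In WT mice the change from 1 month to 3 months was read against all probes, whose median fell by 0.44 on the log2 scale. Of 36 members, 7 were called lower and 0 higher, where 8.08% of all probes were called lower and 0.768% higher. The 7 were Col1a1 (-1.02), Col1a2 (-1.22), Col3a1 (-1.28), Col11a1 (-1.45), Col6a1 (-1.04), Col6a2 (-1.13) and Col9a1 (-1.22), each with an adjusted p of at most 0.018 in limma. The second probe of Col9a1 differed by -0.05 (SE 0.17), so its 2 probes disagreed here too. Relative to the median of all probes these changes were -0.59, -0.79, -0.84, -1.01, -0.60, -0.70 and -0.78. Over all 36 members 18 lay below that median and 18 above it. By class, 8 of 11 fibrillar, 3 of 3 beaded and 5 of 9 FACIT chains lay below it, and 7 of 8 network chains above it. All 9 choroid plexus markers had higher means at 3 months than at 1 month, with a median of 0.54, 0 called and sums from 6.13 to 142 at 1 month and from 74.4 to 114 at 3 months. Col8a1 differed by 0.80 (SE 0.73) and Col8a2 by 1.02 (SE 0.64), but by -0.58 (SE 0.28) by its dimmer second probe. Leptomeningeal markers were also lower in 11 of 12, with a median of -0.65, 7 with an adjusted p below 0.05 and sums from 7.42 to 16.7 at 1 month and from 7.74 to 11.4 at 3 months. Mural cell markers were lower in 7 of 7, with a median of -0.53, 3 with an adjusted p below 0.05 and sums from 6.00 to 8.28 and from 4.57 to 6.02. Endothelial markers were lower in 5 of 7, with a median of -0.17 and 2 with an adjusted p below 0.05. Over all probes the median was -0.44, and 43% had an adjusted p below 0.05. The part of these cell types in the collagen change was not tested. With the adjusted threshold alone 15 of 36 members passed, where 43% of all probes did. When dim spots were counted in the 75th percentile, the median of all probes was 0.02 and 0 members were called, with 1.98% of probes higher and 1.2% lower, so the number of calls follows the scaling. Of the collagen pathway list 4 of 39 were called lower, namely P4hb (-1.14), Tll1 (-1.24), Itga1 (-1.06) and Dcn (-1.32).

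**Figure D5:**
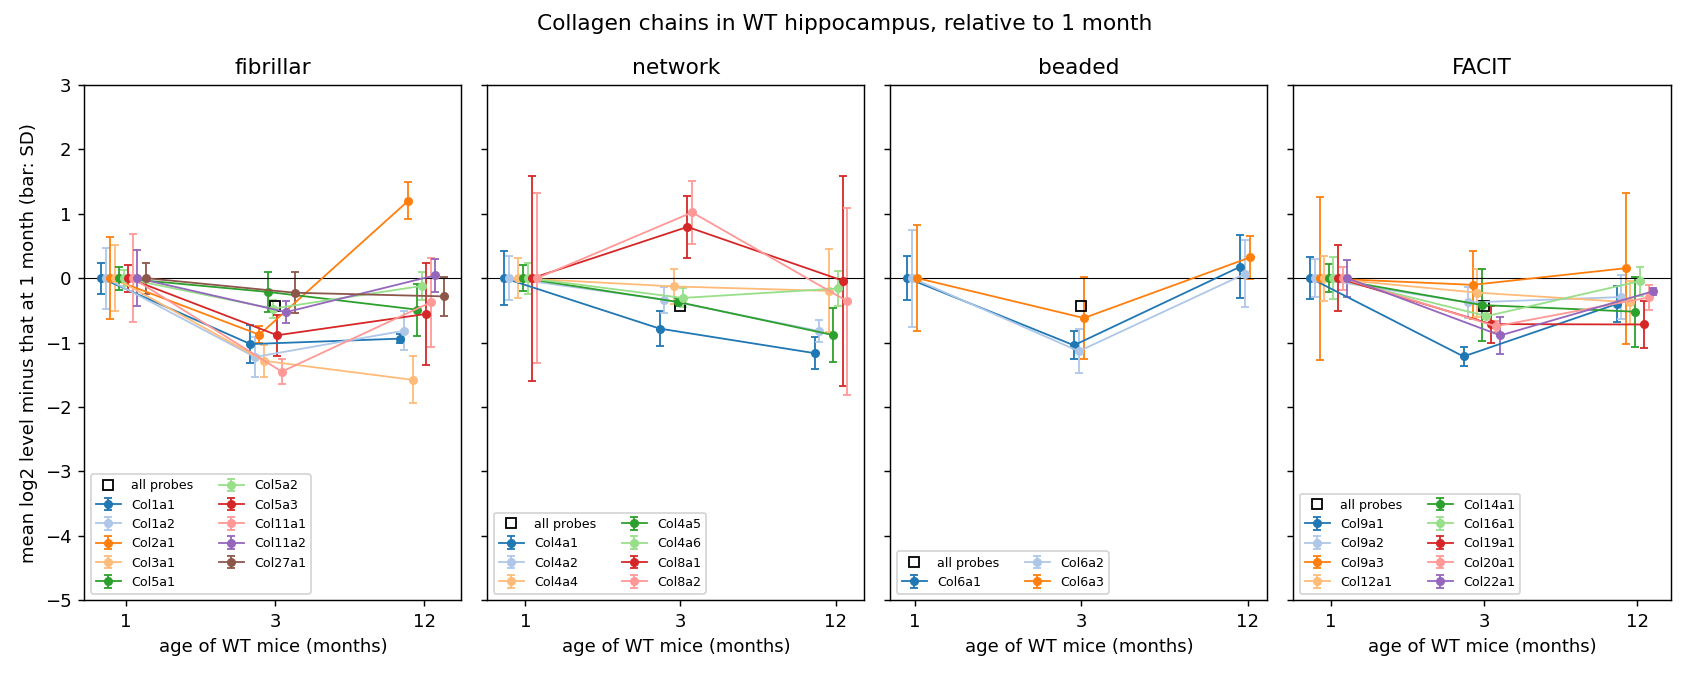
Mean log2 level of each chain in WT mice minus its mean at 1 month, at 1, 3 and 12 months, with the SD of each group as a bar, for chains with at least 2 values in each group. The open square is the median change of all probes from 1 month to 3 months (-0.44), and Col1a1, Col1a2, Col3a1, Col6a1 and Col6a2 lie below it.

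From 3 to 12 months in WT mice 4 of 33 members were called higher and 0 lower, where 3.56% of all probes were called higher and 0.92% lower. Col2a1 rose by 2.08 (SE 0.28, limma adjusted p = 0.0018), from -5.48, -5.64, -5.51 and -5.78 to -3.45, -3.28 and -3.83. Col6a1 rose by 1.22 (SE 0.24, limma adjusted p = 0.0095), from -0.46, -0.50, -0.93 and -0.74 to 0.77, 0.93 and 0.01. Both sets of groups lay apart. Col6a2 differed by 1.20 and Col11a1 by 1.08, with adjusted p-values of 0.053 and 0.072. Col9a1 and Col22a1, below the fold threshold, differed by 0.81 (0.19 by the second probe of Col9a1) and 0.69, with adjusted p-values of 0.023 and 0.044. Col1a1, Col1a2 and Col3a1 differed by 0.08 (SE 0.19), 0.41 (SE 0.26) and -0.30 (SE 0.27), and none was called. Of the network chains 6 of 7 had lower means at 12 months, among them Col4a1 at -0.38 (SE 0.23) and Col4a2 at -0.49 (SE 0.20), neither with an adjusted p below 0.05, Col8a1 at -0.83 (SE 0.79) and Col8a2 at -1.38 (SE 0.68), or 0.59 (SE 0.33) by its second probe. All 9 choroid plexus markers also had lower means at 12 months, with a median of -0.96, 0 called and sums from 10.03 to 196, and their part in these differences was not tested. With scaling by the array median, 3 members were called higher and 1 lower, and 2.64% of all probes were called higher and 1.45% lower. WT mice of 3 months enter both age comparisons, so that their changes are not independent of each other.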

How the data were processed

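Hippocampal RNA of the right hemisphere was labelled with Cy3 and hybridized to Agilent 1-colour arrays. The deposited spot intensity is the background-subtracted and detrended signal of Feature Extraction 10.7.3.1, unscaled between arrays. The authors also deposited log2 values in which each array was shifted to a common 75th percentile, used here as an alternative. The deposited files hold no read depth, and precision is limited by the number of arrays.

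From the 59305 non-control spots, those not well above background or marked as outliers were dropped, the 75th percentile of the rest was subtracted on the log2 scale, and spots of 1 probe were averaged. Probes with at least 2 values per group were fitted with limma 3.58.1 in R 4.3.3, within each age for the genotypes, over the 3 WT groups for age, and over 4 groups for interactions. Symbols were given through RefSeq identifiers. The files carry an older and a newer version of the array annotation, and 41 probes were named through the older version only. The fits were tested on simulated data with planted changes. Single members were compared with two-sided exact permutation tests. Per-sample values were given for members called or with an adjusted p below 0.05 in a genotype comparison, and for Col1a1, Col1a2, Col3a1, Col4a1, Col4a2, Col6a1, Col6a2, Col6a3 and Col25a1. Those of Col8a2 and Col9a2 were added after their values were seen. Other chains are given by class or difference. The members and lists were chosen with earlier results of these data known. At 1 month the deviations of arrays with the same replicate number correlated at 0.19 to 0.51. The pairing was not complete, since TgproNGF#3 replicate 4 correlated best with WT replicate 2. No batch label is given, and array position was read from the slide layout. No source says that mice of a group came from separate litters, so p-values cover the spread between these mice.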

Additional observations from a re-analysis of the deposited data

Results flagged for a closer look

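Of 48 groups of 4 arrays over 12 members, 2 held an array far from the other 3 by Dixon's criterion, and chance gives about 1 in 20. Col6a2 stood at -4.51 in TgproNGF#3 replicate 4 of 3 months, with the others between -3.12 and -2.87. Col11a1 stood at -3.90 in WT replicate 2 of 3 months, with the others between -3.55 and -3.48. The genotype difference at 12 months minus that at 3 months passed an adjusted p of 0.05 in limma, as an interaction, for 7 members, with values of -1.80 for Col1a1, -1.93 for Col1a2, -1.96 for Col2a1, -2.56 for Col3a1, -2.08 for Col9a1, -1.49 for Col9a2 and 2.86 for Col25a1 (1.16 with the mean of its 4 probes, which did not pass).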

How the results depend on the processing

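Of the directions of members that passed in a genotype comparison or in the later interaction, 0 reversed under the alternatives run. Directions of single members in the WT age comparisons were not recomputed. Called members at 1 month (1) became 0 with quantile normalization, the 75th percentile over all spots, normexp background correction (followed by quantile normalization), dim spots kept, the authors' log2 values or the adjusted threshold alone, and 2 with 1 value per group. At 3 months (3) they became 1 with normexp and 5 with dim spots kept. At 12 months (6) they became 3 with normexp and 0 with the adjusted threshold alone, and the median difference became -0.10 with normexp. In WT mice from 1 month to 3 months (7) they became 11 with median scaling, where 19% of all probes were called in either direction, 11 with quantile normalization (21.5%), 0 with the percentile over all spots (3.18%), 2 with dim spots kept (13.3%), 1 with the authors' values (2.5%) and 15 with the adjusted threshold alone (43%). Of members with an adjusted interaction between 3 months and 1 month (0), 1 appeared with median scaling, normexp or all arrays in 1 fit.

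Leaving out 1 array gave 0 to 1 called members at 1 month, 2 to 4 at 3 months, 3 to 7 at 12 months, 5 to 8 in WT from 1 month to 3 months, 4 to 5 from 3 to 12 months, 5 to 8 for the later interaction and 0 to 1 for the earlier one (1 without TgproNGF#3 replicate 4 of 3 months). The median difference ranged from 0.01 to 0.25 at 1 month, from 0.02 to 0.33 at 3 months and from -0.50 to -0.12 at 12 months, where -0.12 is the value without WT replicate 2. With the replicate number as a block, the counts stayed at 1, 3 and 6 and the median at 1 month was 0.13. At 3 and 12 months the numbers did not pair the arrays, with correlations from -0.36 to 0.05, and with the block Col9a1 at 3 months no longer passed the adjusted threshold (difference 0.94). For the other changes the cause was not tested.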
